A study of Homo sapiens with 5 samples.

Results

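The polyamine enzymes and regulators comprised 10 genes of the 26364 listed in each count file, and all 10 were found by their symbols. They fall into 3 roles. ODC1, AMD1, SRM and SMS make polyamines, OAZ1, OAZ2 and AZIN1 control ornithine decarboxylase, and SAT1, SMOX and PAOX break polyamines down. Of the 10, 9 passed a filter on low counts. PAOX did not, with between 1 and 9 counts per library.

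The values came from mRNA sequencing of 5 tumour libraries. The tumours grew from HT-29, an established human colon cancer cell line, placed under the skin of the back of female NOD SCID mice that were 5 weeks old. NOD SCID mice have no T and B cells, and all groups shared this background and the implant of HT-29 cells grown in complete medium. A single library came from tumours of mice fed food lacking methionine, tryptophan and niacin (the combined omission), 1 from food lacking tryptophan and niacin (tryptophan/niacin-free), 2 from food lacking methionine alone (methionine-free), and 1 from normal food. The study's description gives 2 weeks of rearing on the foods and, in another place, an experimental period of 3 weeks. It does not say whether a library pools several tumours or whether the methionine-free replicates are different animals. The p-values therefore rest on a spread between samples that could be technical. The question addressed is how leaving out methionine, tryptophan with niacin, or both moved the messages of a pathway that draws on methionine.

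Putrescine, spermidine and spermine are small, positively charged molecules that growing cells need for translation and that bind RNA and DNA. ODC1 makes putrescine from ornithine. AMD1 decarboxylates S-adenosylmethionine, the activated form of methionine, and SRM and SMS attach the aminopropyl group it carries to make spermidine and spermine, leaving methylthioadenosine, from which methionine can be salvaged. The antizymes OAZ1 and OAZ2 bind ODC and send it to the proteasome, and AZIN1, an inactive relative of ODC, ties up the antizymes. SAT1 acetylates spermidine and spermine for export or oxidation, PAOX oxidises the acetylated forms, and SMOX oxidises spermine directly. Much of the control in this pathway acts on translation and protein turnover, which counts of messages do not measure.

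ODC1 and SRM are textbook targets of MYC, which with MAX binds the E-box CACGTG, and their starts are shown for that reason. RefSeq promoter entries (GRCh38.p14) were found for 7 of the 10 genes, in 10 entries. The E-box, which reads the same on both strands, was searched in the 250 bases before each start. It was present in 2 of the 10 entries, 1 for SRM and 1 of the 2 for ODC1, and in 2228 of 35116 promoter entries in the table, a share of 6.34%. The motif lay 199 bases before the start of SRM and 29 bases before the more downstream of the 2 ODC1 starts. A match of letters is not evidence of binding. The motif, in capitals, is given with up to 60 bases on each side, from 5′ to 3′ on the gene's strand.
SRM (GRCh38.p14, chr1:11060152-11060268, minus strand): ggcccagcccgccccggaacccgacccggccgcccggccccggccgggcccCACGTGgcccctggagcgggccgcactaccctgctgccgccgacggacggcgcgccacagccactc
ODC1 (GRCh38.p14, chr2:10448013-10448101, minus strand): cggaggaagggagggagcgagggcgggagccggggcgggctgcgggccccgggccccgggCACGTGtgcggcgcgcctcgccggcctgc

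The libraries were shallow. The combined omission had a total of 433930 counts, the least of the 5, and normal food 1088084, the most, with 13750 to 15200 genes above 0 in each. At 50 CPM, a count scaled to library size, counting error alone was 13.6% to 21.5%. The 11 colon epithelial markers summed to 14200 to 16100 CPM with none at 0, while endothelial markers summed to 3.26 CPM or less, adipocyte markers to 2.76 CPM or less, fibroblast markers to 15.6 to 18.1 CPM (5 or 6 of 7 at 0), and erythroid markers were at 0. Skeletal muscle markers stood at 68.5 CPM in the tryptophan/niacin-free library and at 1.81 CPM or less in the others. The muscle sum there came mostly from MYH1, MYH2 and MYH4 (22.8, 24.5 and 19.6 CPM). The host's cells are mouse cells and the counts are of human genes, so these sums do not measure how much host tissue a tumour held. Whether mouse reads were removed is not given. A part of mouse reads in the members' counts, in that library or the others, was not tested. Methionine-free replicate 2 carried more of the short transcripts: with genes split into 4 length classes of equal size, its median log2 difference from replicate 1 was 0.35 in the shortest class and −0.36 in the longest. Its summed level of NEAT1 and MALAT1, long nuclear RNAs, was 209 CPM, against 620 to 1450 CPM in the other 4 libraries. The normal and combined-omission libraries are titled in another style than the other 3, and any difference in handling that goes with it cannot be told apart from diet. In tumour RNA, fewer cells that express a gene and less RNA per cell cannot be told apart.

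Per kilobase of transcript, OAZ1 was the most abundant of the 10 messages in each library and PAOX the least. OAZ1 lay between 391.5 CPM per kb (normal food) and 762.5 CPM per kb (methionine-free replicate 2), at least 3.065 times the next gene in any library. PAOX lay between 0.877 and 4.45 CPM per kb. The next ranks were held by ODC1, SMS and SAT1. On normal food SAT1 stood second at 127.7 CPM per kb, above ODC1 at 97.35 CPM per kb, a ratio of 1.31 whose 95% exact interval began at 1.07. ODC1 and SMS were neighbours in 4 libraries, with ratios between 1.01 and 1.12, and no interval separated them there. In the combined omission only OAZ1 at the top and PAOX at the bottom were separated from their neighbours, and between them lay 8 genes from 79.94 to 19.07 CPM per kb, none separated from the next.

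**Figure D1:**
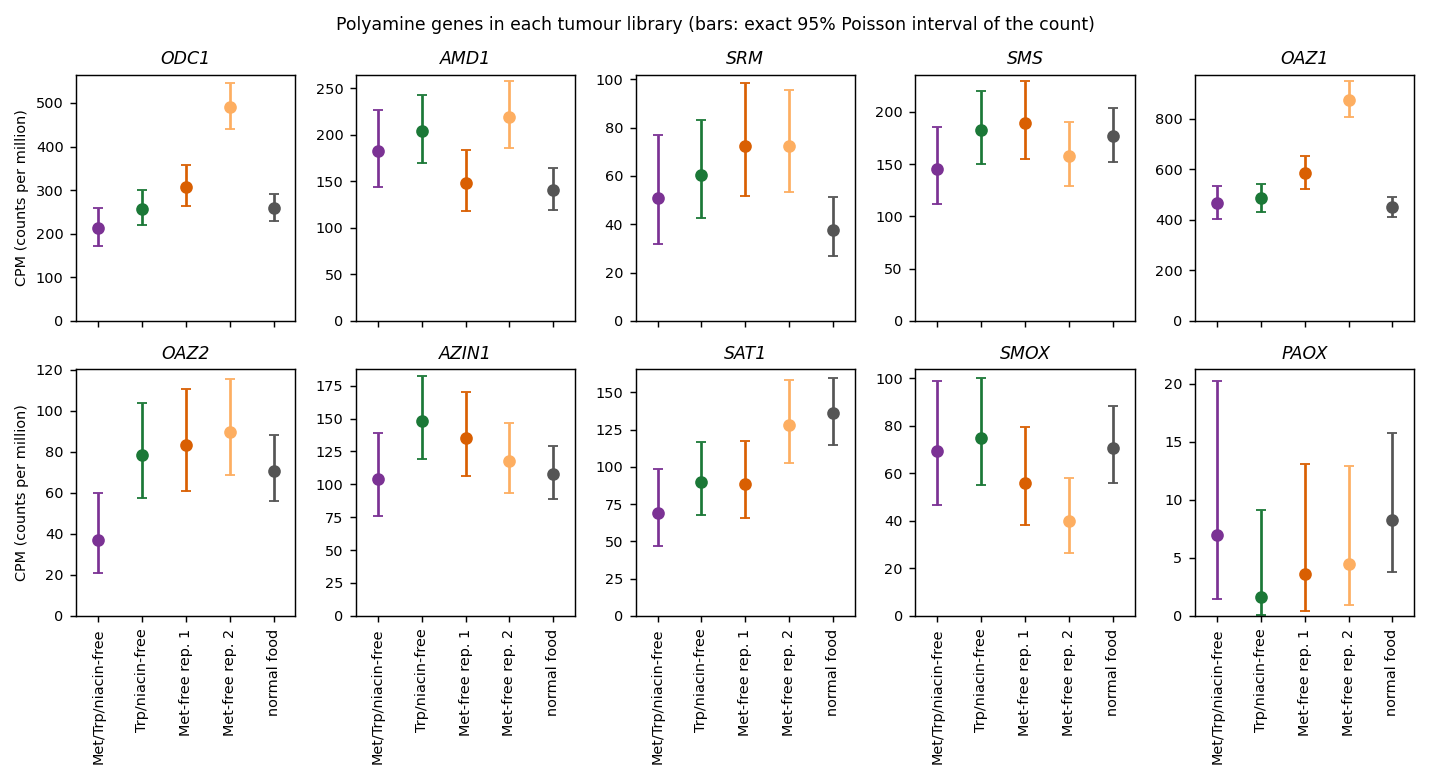
Level of each of the 10 genes in CPM (vertical axes, each starting at 0) in the 5 libraries, with exact 95% Poisson intervals of the count as bars. ODC1 and OAZ1 are highest in methionine-free replicate 2 (490.7 and 875.4 CPM), SAT1 is highest on normal food (136 CPM), and OAZ2 is lowest in the combined omission (36.88 CPM).

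Among the synthesis enzymes, ODC1 varied most and SMS least, and none passed the test in any comparison. ODC1, the decarboxylase that commits ornithine to the pathway, had 212 CPM in the combined omission, 257.5 CPM in the tryptophan/niacin-free library, 307 and 490.7 CPM in methionine-free replicates 1 and 2, and 258.3 CPM on normal food. Methionine-free replicate 2 stood above the other 4 libraries, its Poisson interval of 439.4 to 546.4 CPM clear of theirs, and replicate 1 stood much nearer to the single-library diets. The methionine-free mean was 399 ± 129.8 CPM (SD, n = 2). The fitted log2 change of methionine-free over normal food was 0.71 (SE 0.46, 95% interval −0.19 to 1.60, edgeR adjusted p = 0.773). The combined omission over methionine-free gave −0.998 (SE 0.48, interval −1.94 to −0.05, unadjusted p = 0.0382, edgeR adjusted p = 0.643), and tryptophan/niacin-free over methionine-free gave −0.75 (SE 0.47, adjusted p = 0.992). These changes rested largely on replicate 2. Without it the combined omission over methionine-free was −0.54 and methionine-free over normal food 0.25, both as values with no test. ODC1 overlaps SNORA80B on the same strand, so strand alone cannot tell the reads of these genes apart.

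AMD1, which turns S-adenosylmethionine into the aminopropyl donor, had 182 CPM in the combined omission, 204 CPM in the tryptophan/niacin-free library, 148 and 219.6 CPM in the methionine-free replicates, and 140.6 CPM on normal food. Within the methionine-free pair replicate 1 was close to normal food and replicate 2 was the highest library of all. On the log2 scale methionine-free over normal food gave 0.47 (SE 0.43, interval −0.38 to 1.31, edgeR adjusted p = 0.86), and the combined omission over methionine-free gave −0.10 (SE 0.44, adjusted p = 0.979). Both depended on which replicate entered: the first was 0.08 without replicate 2 and 0.77 without replicate 1, and the second was 0.29 without replicate 2 and −0.40 without replicate 1. Tryptophan/niacin-free over methionine-free, at 0.03, was 0.42 without replicate 2 and −0.27 without replicate 1, so no direction can be given for AMD1 in either comparison with the methionine-free libraries as the base. The tryptophan/niacin-free library held 1.41 times the AMD1 level of the normal-food library (exact 95% interval 1.1 to 1.8), which compares a pair of libraries and not the conditions. Methionine-free replicate 2 against replicate 1, on the same food, gave 1.61 times (1.22 to 2.13).

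SRM, spermidine synthase, was lowest on normal food and alike in the methionine-free replicates. It had 50.7 CPM in the combined omission, 60.3 CPM in the tryptophan/niacin-free library, 72.28 and 72.21 CPM in the methionine-free replicates, and 37.68 CPM on normal food. All 4 libraries from altered foods lay above the normal-food library, on counts of only 22 to 49. The normal-food interval of 27.04 to 51.12 CPM overlapped those of the combined omission and the tryptophan/niacin-free library and ended just below those of the methionine-free replicates, which began at 51.64 and 53.42 CPM. The log2 change of methionine-free over normal food was 1.001 (SE 0.44, interval 0.13 to 1.87, unadjusted p = 0.024), which did not pass after adjustment over all genes (edgeR adjusted p = 0.586). With each library's trend on transcript length removed the change was 0.63 (SE 0.34, adjusted p = 0.675).

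SMS, spermine synthase, was the steadiest member. It had 145 CPM in the combined omission, 183 CPM in the tryptophan/niacin-free library, 190 and 158 CPM in the methionine-free replicates, and 176.5 CPM on normal food. Its highest and lowest libraries differed 1.31-fold, and its SD of log2 CPM over the 5 libraries was 0.145, at percentile 10.6 among 4830 genes of at least 50 CPM, whose median SD was 0.287. Its change in methionine-free over normal food was 0.04 (SE 0.42, interval −0.79 to 0.86, edgeR adjusted p = 0.996). With the length trend removed this value was −0.17, so no direction can be given. Set against SMS per kilobase, SRM stood at 0.507 in the combined omission, 0.479 in the tryptophan/niacin-free library, 0.553 and 0.664 in the methionine-free replicates, and 0.31 on normal food. The normal-food interval, 0.216 to 0.436, overlapped those of the combined omission, the tryptophan/niacin-free library and methionine-free replicate 1, and lay below that of replicate 2 (0.464 to 0.94).

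Among the regulators of ODC, OAZ1 followed the same order of libraries as ODC1 at the top, and OAZ2 was low in a single library. OAZ1, whose translation polyamines raise through a ribosomal frameshift, had 465.6 CPM in the combined omission, 485.7 CPM in the tryptophan/niacin-free library, 585 and 875 CPM in the methionine-free replicates, and 449.5 CPM on normal food. Replicate 2 was again well above the rest, with a Poisson interval of 806.4 to 948.7 CPM, and the 3 single-library diets lay within a narrow range. Methionine-free over normal food was 0.78 (SE 0.50, interval −0.21 to 1.76, edgeR adjusted p = 0.773) and 0.34 (SE 0.25, adjusted p = 0.769) with the length trend removed. The combined omission over methionine-free was −0.73 (SE 0.51, adjusted p = 0.764), and −0.28 with the length trend removed. Without replicate 2 these changes were 0.39 and −0.34, and without replicate 1 they were 1.09 and −1.04. OAZ1 overlaps JSRP1 on the opposite strand, and the strand setting of the counting is not given, so a part of its reads could belong to that gene.

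OAZ2, the second antizyme, had 16 counts (36.88 CPM) in the combined omission, 48 counts (78.2 CPM) in the tryptophan/niacin-free library, 46 and 61 counts (83.1 and 89.9 CPM) in the methionine-free replicates, and 77 counts (70.8 CPM) on normal food. The combined omission stood at the bottom. Its interval of 21.08 to 59.9 CPM met the lower ends of the tryptophan/niacin-free and normal-food intervals, and the other 4 libraries had intervals that all overlapped. The combined omission over methionine-free was a log2 change of −1.30 (SE 0.51, interval −2.30 to −0.30, unadjusted p = 0.0109, edgeR adjusted p = 0.533). The interaction takes the log2 change of the combined omission over tryptophan/niacin-free and subtracts that of methionine-free over normal food. For OAZ2 it was −1.41 (SE 0.70, interval −2.79 to −0.03, unadjusted p = 0.0457, edgeR adjusted p = 0.766). Between single libraries the combined omission held 0.482 times the tryptophan/niacin-free level (exact interval 0.256 to 0.864) and 0.519 times the normal-food level (0.282 to 0.897). The transcript of OAZ2, at 1934 bases, is longer than that of OAZ1, and with the length trend removed the change over methionine-free was −1.097 (adjusted p = 0.6). The combined-omission library was also the shallowest.

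AZIN1, the antizyme inhibitor, had 104 CPM in the combined omission, 148 CPM in the tryptophan/niacin-free library, 135.5 and 118 CPM in the methionine-free replicates, and 107.5 CPM on normal food. Its range was narrow, at 1.43-fold, and the Poisson intervals of all 5 libraries overlapped. The tryptophan/niacin-free library held 1.34 times the normal-food level (exact interval 1.01 to 1.78). Between diets, fitted changes ran from −0.35 (combined omission over methionine-free, edgeR adjusted p = 0.885) to 0.30 (methionine-free over normal food, adjusted p = 0.924). The interaction was −0.78 (SE 0.66, edgeR adjusted p = 0.939). AZIN1 overlaps AZIN1-AS1 on the opposite strand, with the same limit as for OAZ1. Per kilobase, AZIN1 stood at 0.0542 of OAZ1 in the combined omission, 0.0743 in the tryptophan/niacin-free library, 0.0563 and 0.0328 in the methionine-free replicates, and 0.0582 on normal food. The low value of methionine-free replicate 2 was 0.0502 once the length trend was removed, near that of normal food (0.0505).

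ODC1 stood in a much steadier proportion to OAZ1 than either did across libraries. The ratio of ODC1 to OAZ1 per kilobase was 0.197 in the combined omission, 0.229 in the tryptophan/niacin-free library, 0.227 and 0.243 in the methionine-free replicates, and 0.249 on normal food. All 5 intervals overlapped. With the length trend removed, the ratio of methionine-free replicate 2 was 0.313 and the other 4 lay between 0.177 and 0.231, so the evenness of the ratio depended on that step. AMD1 relative to ODC1 per kilobase was 0.663 in the combined omission (0.484 to 0.905) and 0.61 in the tryptophan/niacin-free library (0.479 to 0.777), against 0.372 (0.282 to 0.487) and 0.345 (0.283 to 0.42) in the methionine-free replicates and 0.42 (0.343 to 0.513) on normal food. The 2 libraries from food without tryptophan and niacin thus had the highest AMD1 to ODC1 ratios, with intervals that overlapped that of normal food. They were also the highest with the length trend removed, at 0.649 and 0.594.

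Of the breakdown enzymes, SAT1 was highest on normal food and lowest in the combined omission. SAT1, the acetyltransferase that polyamines themselves induce, had 69.2 CPM in the combined omission, 89.65 CPM in the tryptophan/niacin-free library, 88.5 and 128 CPM in the methionine-free replicates, and 136 CPM on normal food. The combined omission, with an interval of 46.66 to 98.72 CPM, did not overlap normal food at 115 to 159.8 CPM, whereas methionine-free replicate 2 did. The tryptophan/niacin-free library (67.54 to 116.7 CPM) and methionine-free replicate 1 (65.5 to 117.1 CPM) overlapped normal food at its lower edge. The combined omission held 0.506 times the normal-food level (exact interval 0.33 to 0.753) and the tryptophan/niacin-free library 0.641 times (0.462 to 0.879). In the model that adds the effect of each omission, leaving out tryptophan and niacin gave −0.69 (SE 0.32, interval −1.37 to −0.0023, unadjusted p = 0.0493, edgeR adjusted p = 1). With the length trend removed this effect was −0.45 (unadjusted p = 0.104), and the unadjusted p was 0.0676 with library totals and 0.113 with DESeq2. For methionine-free over normal food the change was −0.25 (SE 0.40, edgeR adjusted p = 0.935). That value depended on which replicate entered: it was −0.61 without replicate 2 and 0.04 without replicate 1. SAT1 has a transcript of 1065 bases, and with the length trend removed the change of methionine-free over normal food was −0.70 (SE 0.27, unadjusted p = 0.0248, edgeR adjusted p = 0.576).

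The leukocyte and macrophage list, counted as human genes in tumours of a mouse host, moved in the same order at its ends. Its 6 markers summed to 34.6 CPM in the combined omission, 40.8 CPM in the tryptophan/niacin-free library, 43.4 and 44.2 CPM in the methionine-free replicates, and 63.4 CPM on normal food, with 3 or 4 markers at 0. CD68 made up most of it, at 32.3, 34.2, 39.8, 39.8 and 56.1 CPM in that order of libraries, while PTPRC, CSF1R and AIF1 were at 0 in all 5. Their part in the SAT1 values was not tested. A list of 10 hypoxia-induced genes summed to 3810 CPM in the combined omission, 727 CPM in the tryptophan/niacin-free library, 1400 and 1100 CPM in the methionine-free replicates, and 5170 CPM on normal food. SAT1 and this sum were both highest on normal food. SAT1 was lowest in the combined omission and the sum in the tryptophan/niacin-free library. A part of hypoxia in the SAT1 values was not tested.

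SMOX, the spermine oxidase, had 69.2 CPM in the combined omission, 74.98 CPM in the tryptophan/niacin-free library, 56.01 and 39.8 CPM in the methionine-free replicates, and 70.8 CPM on normal food. Both methionine-free libraries lay below the other 3, which were close to each other, though the counts of 27 to 77 left wide intervals. Methionine-free over normal food was −0.51 (SE 0.42, interval −1.34 to 0.32, edgeR adjusted p = 0.843), and −0.33 without replicate 2. The combined omission over methionine-free was 0.47 (SE 0.47, adjusted p = 0.845), and tryptophan/niacin-free over methionine-free was 0.56 (SE 0.45, adjusted p = 0.992). PAOX had 3 counts in the combined omission, 1 in the tryptophan/niacin-free library, 2 and 3 in the methionine-free replicates, and 9 on normal food. All but the normal-food count are at or under the floor of 3 counts, and no change in PAOX was detectable at this depth. Fitted without the filter on low counts, methionine-free over normal food was −0.94 for PAOX (SE 1.02, edgeR adjusted p = 0.946).

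The share of the pathway's counts taken by breakdown enzymes was higher on normal food than in the other libraries. SAT1, SMOX and PAOX together made up 10.8% of the counts of all 10 genes in the combined omission (63 of 582, Wilson 95% interval 8.55% to 13.6%) and 10.5% in the tryptophan/niacin-free library (102 of 971, 8.73% to 12.6%). They made up 8.87% and 7.85% in the methionine-free replicates (82 of 924 and 117 of 1490), against 14.8% on normal food (234 of 1584, 13.1% to 16.6%). The normal-food share was above the other 4, with an interval that overlapped that of the combined omission at its edge. These intervals cover counting error only, and 1 library against 4 cannot reach an exact p below 0.2. The synthesis enzymes took 44%, 44.5%, 43%, 42.8% and 42.1% in the same order, and the ODC regulators 45.2%, 45%, 48.2%, 49.3% and 43.1%. The synthesis share thus lay between 42.1% and 44.5% on these counts. With the length trend removed it was 42.5%, 43.5%, 43.2%, 47.1% and 40.9% in the same order. Methionine-free replicate 2 was then the highest and normal food the lowest.

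The ratio of SAT1 to ODC1 put the ends of the pathway side by side. Per kilobase it was 0.812 in the combined omission (0.519 to 1.24), 0.867 in the tryptophan/niacin-free library (0.626 to 1.19), 0.718 (0.511 to 0.992) and 0.651 (0.508 to 0.826) in the methionine-free replicates, and 1.31 on normal food (1.07 to 1.61). Normal food was the only library where SAT1 exceeded ODC1. Its interval was clear of both methionine-free libraries and overlapped the other 2. With the length trend removed the ratios were 0.911, 0.949, 0.705, 0.496 and 1.44 in the same order, and normal food was still the highest. A ratio of this kind does not say which of its genes moved.

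**Figure D2:**
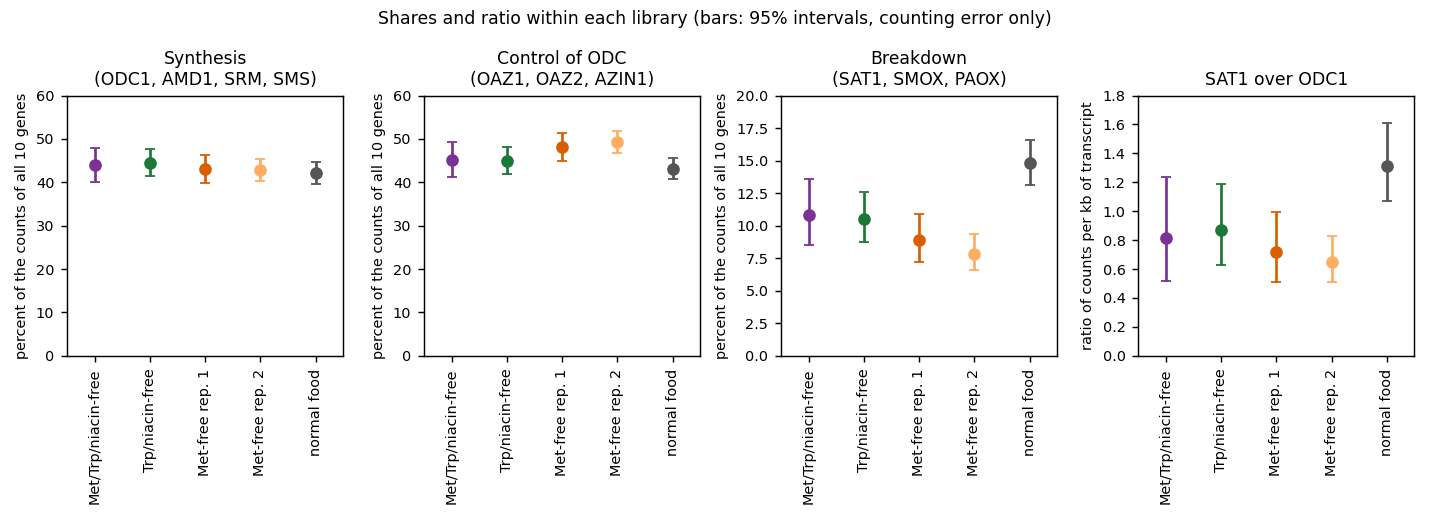
The first 3 panels plot the share of the 10 genes' counts (percent, Wilson 95% intervals) taken by synthesis enzymes, ODC regulators and breakdown enzymes in each library, and the last the ratio of SAT1 to ODC1 per kilobase of transcript (exact 95% intervals). The breakdown share (14.8%) and the ratio (1.31) are highest on normal food, while the synthesis share lies between 42.1% and 44.5%.

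No member passed an adjusted p of 0.05 in any of the 6 tested comparisons with edgeR, nor with DESeq2 or limma-voom. For methionine-free over normal food edgeR called 23 of 10005 genes (0.23%), all lower. At an unadjusted p below 0.05 it listed 1 of 9 members (SRM) beside 7.68% of all genes. For the combined omission over methionine-free 3 genes were called (0.03%), and the unadjusted list held 2 members (ODC1 and OAZ2) beside 7.59% of genes. For tryptophan/niacin-free over methionine-free no gene was called (0%), and the unadjusted list held no member beside 4.91% of genes. The interaction called 43 genes (0.43%) and listed 1 member unadjusted (OAZ2) beside 6.45% of genes. The additive effects called no gene (0%), and the unadjusted lists held no member for methionine beside 1.72% of genes and 1 for tryptophan with niacin (SAT1) beside 1.64%. At unadjusted p, DESeq2 listed no member in any comparison, and limma-voom listed 1 for methionine-free over normal food and 2 for the combined omission over methionine-free. With 9 members tested, each such count is 0, 1 or 2 genes, none of which passed after adjustment. On simulated data the edgeR fits missed most 2-fold changes (shares given below), so not passing does not show that a member was unchanged.

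The median log2 change of the 9 members was 0.36 for methionine-free over normal food (7 of 9 above 0), beside 0.0028 for all genes tested. It was −0.58 for the combined omission over methionine-free (1 of 9 above 0), beside −0.02 for all genes, and −0.25 for tryptophan/niacin-free over methionine-free (3 of 9 above 0). Without methionine-free replicate 2 these medians were 0.24, −0.39 and −0.10, and with the length trend removed they were 0.34, −0.26 and 0.01, so the last has no set direction. These comparisons share the methionine-free libraries. Replicate 2 over replicate 1 had a median of 0.22 (6 of 9 above 0), and there the counting interval excluded a ratio of 1 for 4 members. Those were AMD1, ODC1 (1.73, 1.44 to 2.1), OAZ1 (1.62, 1.41 to 1.86) and SAT1 (1.57, 1.09 to 2.28), beside 20.7% of all genes. Between single libraries of different foods the interval excluded 1 for 3 members in tryptophan/niacin-free over normal food (AMD1, AZIN1 and SAT1, beside 14.1% of genes). It did so for 2 in the combined omission over normal food (OAZ2 and SAT1, beside 8.13%) and for 1 in the combined omission over tryptophan/niacin-free (OAZ2, beside 11%). No member met the size rule of a 2-fold difference with such an interval in any of these pairs, beside 3.52%, 2.02% and 4.04% of genes in the same order and 6.6% between the methionine-free replicates. OAZ2, at a log2 difference of −0.99 in the combined omission over tryptophan/niacin-free, lay just short of it and met it with library totals, a prior count of 0.5 or the length trend removed.

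**Figure D3:**
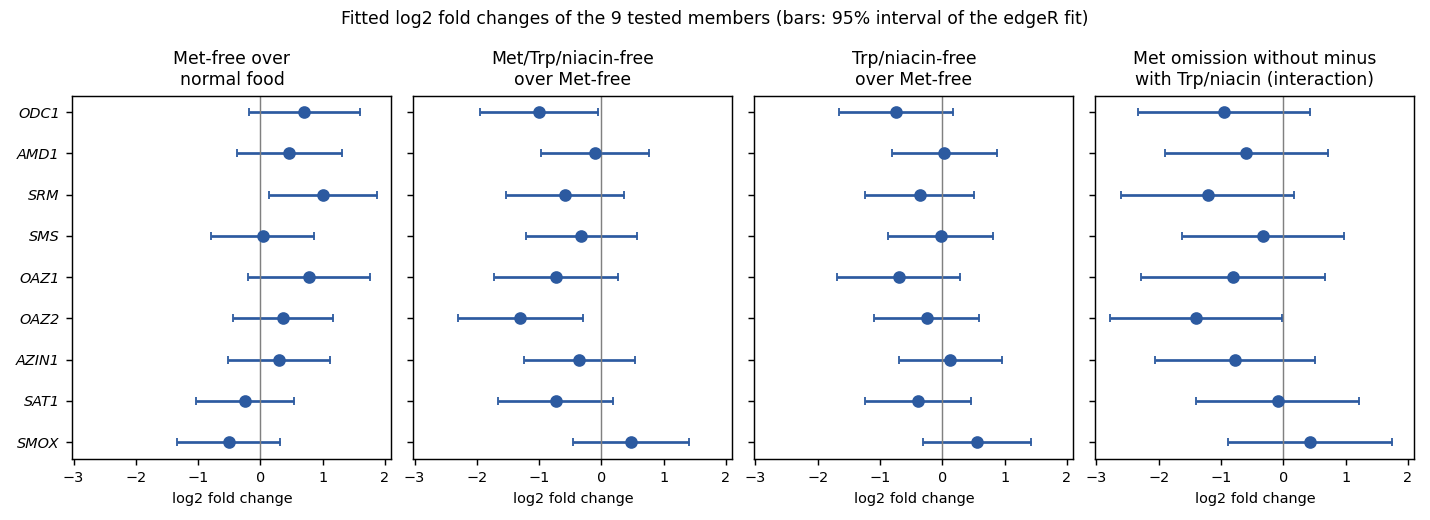
Fitted log2 fold changes (horizontal axes) of the 9 tested members in 4 comparisons, with 95% intervals of the edgeR fit. Most intervals cross 0, the exceptions are SRM in methionine-free over normal food, ODC1 and OAZ2 in the combined omission over methionine-free, and OAZ2 in the interaction, and none passed after adjustment.

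Each tested member's difference between the methionine-free replicates is given here, for some of them beside the median of genes in a length class. SAT1 (1065 bases) and OAZ1 (1148 bases) were higher in replicate 2 by 0.63 and 0.70 on the log2 scale, beside a median of 0.35 for the shortest class of genes, whose median length is 1626 bases. Both transcripts are shorter than that length, and the counting interval of the SAT1 ratio, 1.09 to 2.28, spans the class median. ODC1 (2653 bases) and AMD1 (3438 bases) were higher by 0.79 and 0.67, beside medians of 0.08 and −0.10 for the classes with median lengths of 2797.5 and 4248 bases. SRM (1266 bases) differed by 0.11, with a counting interval of the ratio from 0.7 to 1.69, which spans the median of the shortest class. OAZ2 (1934 bases) differed by 0.22, with a counting interval of the ratio from 0.787 to 1.76. SMOX (2322 bases), SMS (1837 bases) and AZIN1 (4721 bases) were lower in replicate 2, by differences of −0.35, −0.15 and −0.08.

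**Figure D4:**
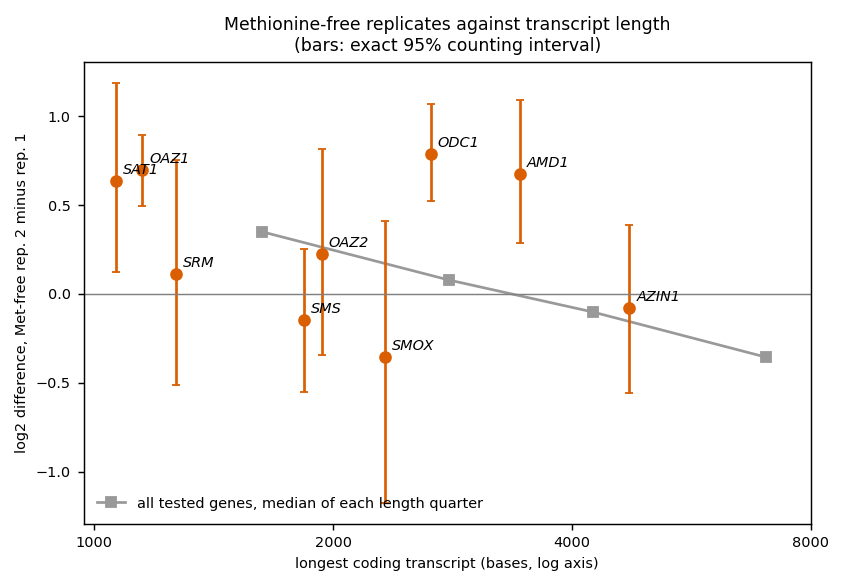
Log2 difference of methionine-free replicate 2 minus replicate 1 (vertical axis) against transcript length in bases (log axis) for the 9 members, with exact 95% counting intervals, and the medians of all tested genes in 4 length classes (grey squares). ODC1 and AMD1 lie above the grey line. SAT1 and OAZ1 lie above the level of its first square (0.35) and SRM (0.11) below it, with intervals that span that level for SAT1 and SRM.

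The genes around the pathway showed few differences. Over the 4 lists described here, the medians for methionine-free over normal food were 0.36 for companion enzymes, 0.32 for methionine supply and salvage, 0.38 for hypusine formation and −0.31 for transport, beside 0.0028 for all genes. Precursor and companion enzymes and MYC with MAX formed a list of 13, of which 8 were tested and none passed in any comparison. MYC had 256 CPM in the combined omission, 246 CPM in the tryptophan/niacin-free library, 195 and 202 CPM in the methionine-free replicates, and 200 CPM on normal food, and methionine-free over normal food was 0.05 (SE 0.43, edgeR adjusted p = 0.992). MYC was highest in the combined omission, and ODC1 and SRM, which carry the E-box shown, in a methionine-free library. A part of MYC in their levels was not tested, and counts of its message do not measure the protein. The methionine supply and salvage list had 7 of 8 genes tested and none passed. MAT2A, which makes S-adenosylmethionine in most tissues, had 516 CPM in the combined omission, 590 CPM in the tryptophan/niacin-free library, 452 and 339 CPM in the methionine-free replicates, and 481 CPM on normal food (methionine-free over normal food −0.23, SE 0.47, edgeR adjusted p = 0.957). APIP, a dehydratase of methionine salvage, had 4 counts in the combined omission, 26 in the tryptophan/niacin-free library, 18 and 26 in the methionine-free replicates, and 32 on normal food. It met the size rule in the combined omission over normal food (log2 −1.41, beside 2.02% of all genes) and over tryptophan/niacin-free (−1.86, beside 4.04%). Its fitted change over methionine-free, −2.001 (SE 0.75, edgeR adjusted p = 0.505), did not pass.

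Spermidine also supplies the aminobutyl group with which DHPS and DOHH convert a lysine of EIF5A to hypusine, a modification the factor needs in translation. All 4 genes of that list were tested and none passed. EIF5A had 419.5 CPM in the combined omission, 492 CPM in the tryptophan/niacin-free library, 571 and 737 CPM in the methionine-free replicates, and 409 CPM on normal food, so that replicate 2 was again highest. Its change in methionine-free over normal food was 0.75 (SE 0.49, edgeR adjusted p = 0.78). In the transport list 8 of 11 genes were tested and 1 was lower in methionine-free over normal food, beside 0.23% of all genes called there. SLC22A3, an organic cation transporter that can carry polyamines, had 25.4 CPM in the combined omission, 24.5 CPM in the tryptophan/niacin-free library, 14.5 and 7.37 CPM in the methionine-free replicates, and 53.3 CPM on normal food. Normal food was the highest, and methionine-free over normal food was −2.24 (SE 0.55, edgeR adjusted p = 0.0248). The log2 change was −2.23 with limma-voom, −2.24 with the length trend removed and −2.25 with DESeq2, while the adjusted p was 0.0956, 0.21 and 1 in the same order, so the call was not kept under those. It was −1.87 without replicate 2 and −2.70 without replicate 1, as values with no test. SLC22A3 also met the size rule in tryptophan/niacin-free over normal food (log2 −1.07), beside 3.52% of all genes. SLC18B1 and CAV1 met it in the combined omission over tryptophan/niacin-free (−1.35 for both, on 6 against 25 counts), beside 4.04% of all genes. In methionine-free replicate 2 over replicate 1, MAX (1.01) and MAT2B (1.09) of the lists above met it, beside 6.6% of all genes. SLC3A2, the heavy chain of amino acid exchangers, which has also been linked to polyamine export, had 212 CPM in the combined omission, 197 CPM in the tryptophan/niacin-free library, 128 and 127 CPM in the methionine-free replicates, and 231 CPM on normal food. Both methionine-free libraries were below the other 3, and the change over normal food, −0.79 (SE 0.42, edgeR adjusted p = 0.682), did not pass.

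The genes with profiles most like those of ODC1, AMD1 and SAT1 were sought among 4829 others of at least 50 CPM, by the root mean square difference in centred log2 CPM over the 5 libraries. For ODC1 they were CDK2AP1 (0.0339), CACYBP (0.0406) and PSMD13 (0.0438), beside a median of 0.493 over all genes. For AMD1 they were HSPA14 (0.0444), NOL11 (0.0544) and PCID2 (0.0565), beside a median of 0.36, and for SAT1 they were HES6 (0.0719), ZNF706 (0.0916) and MAPK6 (0.107), beside a median of 0.447. These lists are a description of 5 libraries only. CACYBP, for example, had 57.6 CPM in the combined omission, 70.1 CPM in the tryptophan/niacin-free library, 81.3 and 143 CPM in the methionine-free replicates, and 72.6 CPM on normal food, with the same high value in replicate 2 as ODC1.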

How the data were processed

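Per the labels, RNA was extracted with QIAzol and libraries were made with a TruSeq stranded mRNA kit. The study's description names RNeasy for the extraction instead. The authors deposited expected counts by gene symbol, of which 15.2% to 17.6% of those above 0 carry decimals. Per the submitters' processing notes the build was hg19 and the tools were featureCounts, Subread 2.0.0, TopHat2 2.1.1, SAMtools 0.1.18 and Bowtie2 2.2.8. Not given in the sources used here are the annotation, the strand setting, the handling of reads that map more than once and any removal of mouse reads. Of the members' values, 1 carried a decimal (SMOX, combined omission).

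Expected counts were rounded. CPM divides by the library total. Filtering (filterByExpr) kept 10005 genes. Tests were edgeR 4.0.16 quasi-likelihood F-tests (R 4.3.3, limma 3.58.1, TMM factors 0.929 to 1.04, p adjusted by Benjamini-Hochberg across the whole tested table, threshold 0.05). The fit with 1 mean per diet leaves 1 residual degree of freedom, which the methionine-free replicates supply, and the other diets were assumed to vary as they do. Its biological coefficient of variation was 0.207, with infinite prior degrees of freedom. The additive fit leaves 2 (0.227). Pairs of single libraries had no test. The size rule asked for a log2 CPM difference (TMM, prior count 2) of at least 1 and a 95% exact conditional binomial interval of the ratio that excludes 1. Transcript lengths are those of the longest coding transcript in GENCODE (GRCh38), known for 95.8% of genes tested. Alternatives were other scaling factors, no filter, DESeq2 1.42.0, limma-voom, removal of each library's length trend, other prior counts and leaving out each methionine-free replicate. The fits were tested on simulated data with 200 genes changed. At 2-fold they recovered 4.5% for methionine-free over normal food and 7% for the combined omission over methionine-free. For tryptophan/niacin-free over methionine-free they recovered 1%, for the interaction 0%, and for the additive methionine and tryptophan/niacin effects 26% and 31.5%. At 4-fold the recovered share lay between 8.5% (interaction) and 96.5% (additive methionine effect).

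The members and lists were chosen with earlier results of these data known. All members are named, as is every gene of the other lists that passed a test, with up to 4 further genes per list by mean CPM, and for ODC1, AMD1 and SAT1 the 3 genes of the nearest profile. APIP, named for meeting the size rule, and CACYBP, as the example profile, follow from these. No genome of the files' build was used, so gene coordinates are given only with the promoter sequences.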

Additional observations from a re-analysis of the deposited data

How the results depend on the processing

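No member crossed the threshold under any alternative, and the lowest adjusted p of a member was 0.519 (OAZ2, combined omission over methionine-free, limma-voom). Of the members' 432 log2 fold changes under alternatives, 410 kept their sign and 22 changed it, none of them past the threshold. Of these, 6 are values with no test from leaving out a replicate. Without replicate 1, SMS was −0.0382 and SAT1 0.0387 in methionine-free over normal food, and AMD1 −0.27 and SMS 0.0468 in tryptophan/niacin-free over methionine-free. Without replicate 2, AMD1 was 0.29 in the combined omission over methionine-free and SAT1 0.28 in the interaction. The other 16 came from fits with a test. With library totals only these were SMS at −0.0249 in methionine-free over normal food and 0.0738 in tryptophan/niacin-free over methionine-free, and SRM at 0.0422 for tryptophan/niacin omission. With the length trend removed they were SMS at −0.17 in methionine-free over normal food; SMS at 0.20, SRM at 0.0173, SAT1 at 0.0585 and AZIN1 at −0.000517 in tryptophan/niacin-free over methionine-free; SAT1 at 0.38 in the interaction; AZIN1 at 0.0585 for methionine omission; and SRM at 0.20 and AZIN1 at −0.0495 for tryptophan/niacin omission. Without the filter AZIN1 was −0.0128 for tryptophan/niacin omission. Leaving out a methionine-free replicate gave SRM between 0.0202 and 0.10 for tryptophan/niacin omission, and AMD1 for methionine omission between −0.0241 without replicate 2 and 0.33 without replicate 1.

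Counts of genes called moved more. For methionine-free over normal food, 23 became 1 with DESeq2 and 3 with the length trend removed. For the combined omission over methionine-free, 3 became 6 with library totals, 9 with limma-voom, and 0 with DESeq2 (37 at unadjusted p) and with the length trend removed (804 at unadjusted p). For the interaction, 43 became 2 with DESeq2 and 18 with the length trend removed. OAZ2 met the size rule in the combined omission over tryptophan/niacin-free (1 member in place of 0) with library totals, with a prior count of 0.5 and with the length trend removed, where its log2 difference was −1.01. The cause was not tested. After seeing the data, shares and ratios were also computed with the length trend removed, and PAOX without the filter; 50 of the shares and ratios stayed within their intervals and 5 did not, all in methionine-free replicate 2. In that library the synthesis share became 47.1% and the ODC regulators' share 45.7%. Levels were the same within counting error with TMM-scaled CPM and with counts not rounded. Without a methionine-free replicate the fit with 1 mean per diet has no residual degree of freedom and gives values only. No paired analysis was possible because every diet except methionine-free has a single library. Depth limits SRM, OAZ2, SMOX and PAOX most.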
